A study of Rattus norvegicus with 20 samples.

Results

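The sodium pump, its small FXYD regulators and the potassium channels of the cortical collecting duct were followed in rats during escape from the antidiuretic action of vasopressin. The genes were Atp1b1, Fxyd2, Fxyd4, Kcnj1, Kcnma1, Kcnj10, Kcnj16 and Kcnk1, chosen by symbol as 8 of 32545 genes in a table of read counts. All 8 passed the filter on low counts, which left 14472 genes for testing. The ducts were dissected by hand from collagenase-treated left kidneys of 20 male Sprague-Dawley rats aged 5 weeks, with 1 library per rat. Every rat, controls included, carried a subcutaneous minipump that delivered DDAVP, an agonist of the vasopressin V2 receptor, at 5 ng per hour. The water-loaded rats received 50 mL of water per day in gelled food, and the control rats received 25 mL per day. Ducts were taken at day 1 from 3 water-loaded and 3 control rats, at day 2 from 4 water-loaded and 4 control rats, and at day 4 from 3 water-loaded and 3 control rats. Rats without DDAVP were not analysed here.

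The collecting duct takes up sodium through channels in the luminal membrane of principal cells and secretes potassium in exchange. The sodium pump in the basolateral membrane drives both movements: a catalytic alpha subunit exports sodium and imports potassium, a beta subunit brings the alpha subunit to the membrane, and FXYD proteins tune its affinity for the ions. Potassium then leaves the cell through channels on either side, to the urine through ROMK and the BK channel, or back to the blood through inward rectifier channels of the basolateral membrane.

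Reads on genes numbered 33.5 to 74.9 M per library. The 8 genes together held 0.534% to 1.29% of them. Levels below are TMM-normalised CPM, counts scaled to library size, unless FPKM is named, in which the authors also divided by the length of the gene model. The tissue label was checked against 9 principal cell and 10 intercalated cell markers, all of which were measured. The 9 principal cell markers summed to 13984 to 29575 CPM in water-loaded libraries and 26004 to 70954 CPM in control libraries. The 10 intercalated cell markers summed to 11064 to 16879 CPM in water-loaded libraries and 9693 to 15398 CPM in control libraries. RNA of other cell types was present in all libraries and was high in a pair of them. The day 1 control 1 library held 5898 CPM over 9 smooth muscle, pericyte and fibroblast markers, against at most 124 CPM in the other 19 libraries. The day 1 water-loaded 2 library held 8472 CPM over 14 proximal tubule markers, against at most 2970.1 CPM in the others. Neither intercalated cell nor other cell type markers had a gene called over the average of days; the smallest edgeR p among markers of intercalated cells, thick limb and distal tubule, proximal tubule, smooth muscle and stroma, endothelium and immune cells belonged, in this order, to Atp6v1b1 (log2 difference 0.54, adjusted p = 0.126), Cldn19 (-1.02, 0.171), Slc5a2 (7.39, 0.126), Pdgfrb (1.80, 0.433), Kdr (0.92, 0.755) and Ptprc (4.99, 0.216). Of 11 thick limb and distal tubule markers, some of which ducts also express, Pvalb was at 0 in all libraries, and the 11 summed to 5811 to 21644 CPM in water-loaded libraries and 4769 to 12201 CPM in control libraries. Results for the 8 genes that rest on the 2 libraries above are given with and without them. The marker differences above, such as that of Slc5a2, are given with all libraries only. These are bulk samples, in which fewer cells of a type and less RNA per cell cannot be told apart.

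Per length, Fxyd2 and Atp1b1 stood far above the other 6 genes. By the median FPKM over 20 libraries the order was Fxyd2 at 6519, Atp1b1 at 5131, Fxyd4 at 285, Kcnj1 at 219, Kcnk1 at 148, Kcnj16 at 29.6, Kcnj10 at 1.99 and Kcnma1 at 0.541. Several neighbours in this order were not separated beyond the spread between rats: Fxyd2 lay above Atp1b1 in 14 of 20 libraries, Fxyd4 above Kcnj1 in 16 and Kcnj1 above Kcnk1 in 14. Atp1b1 lay above Fxyd4, Kcnk1 above Kcnj16 and Kcnj16 above Kcnj10 in all 20 libraries, and Kcnj10 above Kcnma1 in 19. The first place of Fxyd2 depends on the length of 212 bases that its FPKM values imply, against 1300.3 bases for Atp1b1. Its distance from Fxyd4, with an implied 1354 bases, depends on that length too. The median ratio of Fxyd4 to Fxyd2 over 20 libraries was 0.0462 in FPKM and 0.295 in CPM. In day 2 control 2 the CPM ratio was 1.29, with Fxyd4 the higher. Reads outside the gene models the authors used are in neither unit.

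**Figure D1:**
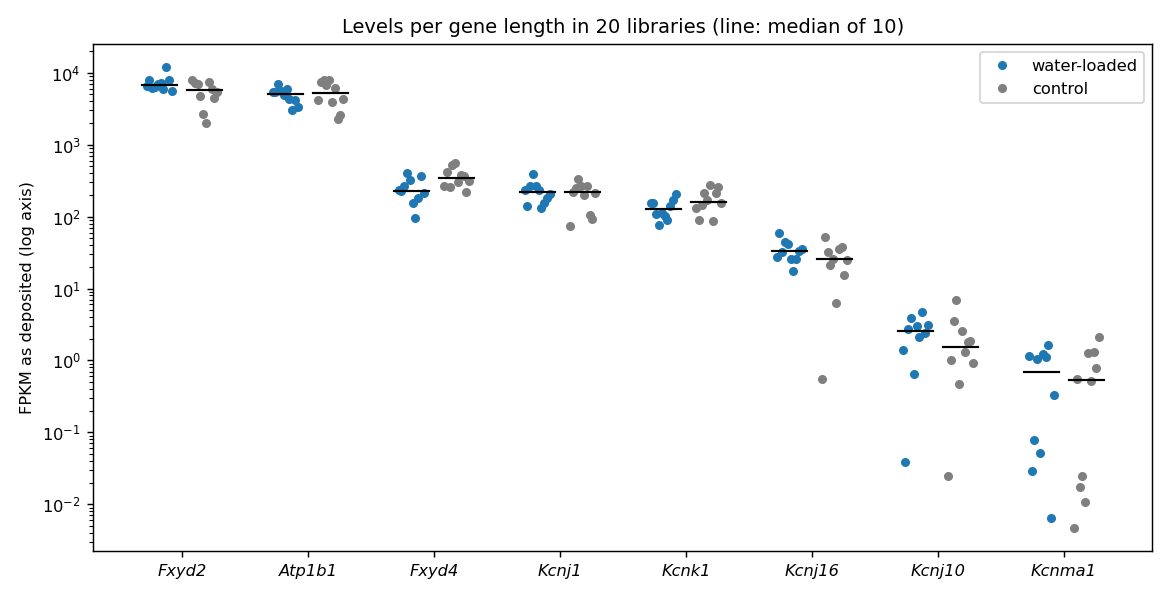
FPKM as deposited of the 8 genes (log axis) in each of 20 libraries, water-loaded rats in blue to the left of control rats in grey, with a line at the median of 10 libraries. The pump genes Fxyd2 and Atp1b1 lie highest, above Fxyd4, Kcnj1 and Kcnk1, and Kcnj10 and Kcnma1 spread most between libraries (0.0251 to 6.96 and 0.00469 to 2.12 FPKM).

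After the water load none of the sodium pump genes or potassium channels among the 8 passed the test, at any day or over the days together. With edgeR's quasi-likelihood test, adjusted over 14472 genes, 0 of the 8 genes were called (adjusted p under 0.05) over the average of the 3 days, where the background was 0.159% of genes tested. The same count of 0 came from DESeq2 and from limma-voom, which called 708 and 63 genes in all. By edgeR at day 1, day 2 and day 4 likewise 0 of 8 were called, against a background of 0% of genes. An effect that differed between days was called by edgeR for 0 of 8, also against 0% (0 of 8 at an unadjusted p under 0.05, against 8.56%). The common biological coefficient of variation over genes was 1.06.

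By unadjusted p under 0.05 in the same edgeR fit, Fxyd4 and Kcnk1 were lower over the average of days, 2 of 8 genes against a background of 6.05% of genes lower and 13.5% in either direction. At day 2 the same 2 genes were lower, against 2.47% of genes lower and 5.23% in either direction. At day 1 there were 0 of 8, against 15.6%, and at day 4 there were 0 of 8, against 7.22%. Over the average of days 5 of the 8 genes were higher and 3 lower (51.0% of all genes were higher), with a median log2 difference of 0.11, beside 0.01 over all genes tested. In none of the 8 did the water-loaded and control rats separate without overlap at any day, against 10.9% of genes at day 1, 4.23% at day 2 and 14.7% at day 4.

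**Figure D2:**
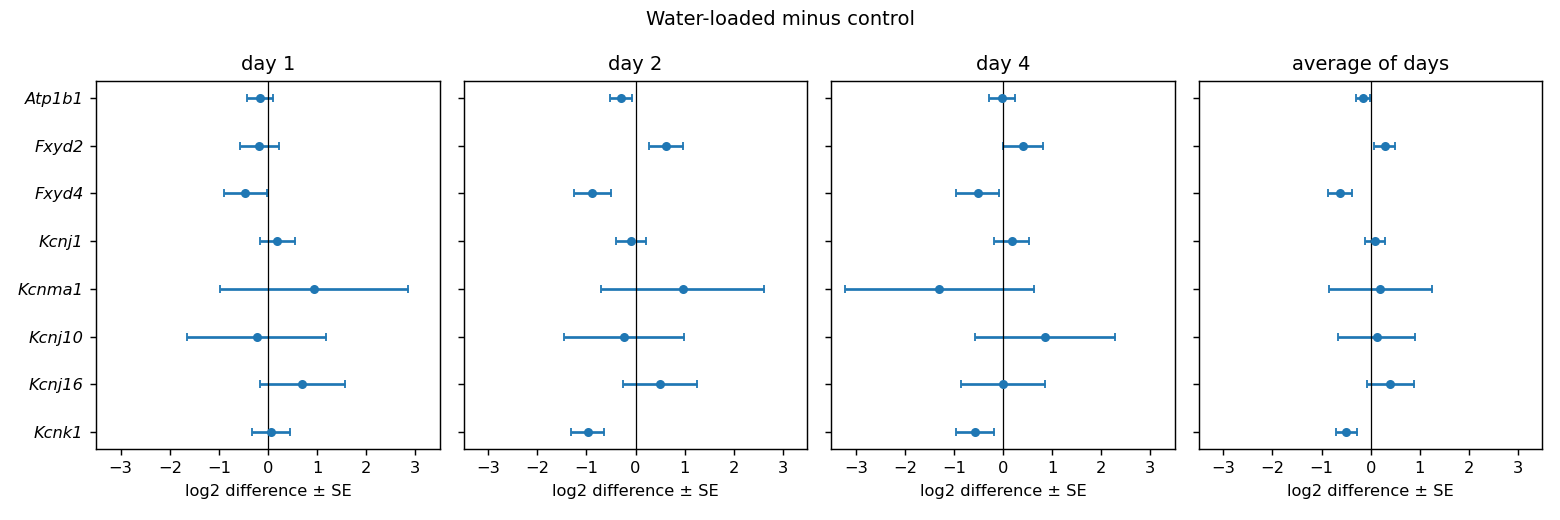
Fitted log2 difference of water-loaded minus control rats (horizontal axis, bars are ± 1 SE) for each gene at day 1, day 2 and day 4 and over the average of days. Fxyd4 lies left of 0 in every panel, Kcnk1 in every panel but day 1, and the bars of Kcnma1 and Kcnj10 span 0 at all days.

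Atp1b1 (ENSRNOG00000002934) encodes the beta 1 subunit, which carries the pump's alpha subunit to the membrane. At day 1 it had 6422, 10234 and 8919 CPM in water-loaded rats, against 8415, 10196 and 10160.2 CPM in control rats. At day 2 it had 7184, 6190.0, 6667 and 6021 CPM in water-loaded rats, against 8617, 10982, 4577 and 7819 CPM in control rats. The day 4 levels were 3287, 4521 and 3707 CPM in water-loaded rats, against 3138, 3706 and 4823 CPM in control rats. The treatments overlapped at each day, and in this unit the day 4 rats of both treatments lay below all day 1 rats. That separation rests on TMM factors at both days: 0.645 in day 1 control 1, 1.17 in day 4 control 3 and 1.22 in day 4 water-loaded 2. In FPKM, which carry no such factor, day 1 control 1 (4163) lay below day 4 control 3 (4322) and day 4 water-loaded 2 (4240). Water load minus control came to -0.16 on the log2 scale over the average of days (SE 0.15, approximate 95% interval -0.48 to 0.15, edgeR adjusted p = 0.735). The interval is not adjusted for the number of genes tested, so it does not bound the responses that the test could have missed.

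Atp1b1 was the gene of the 8 that was called over the days. Fxyd2 and Kcnj1 missed the threshold among control rats (edgeR unadjusted p = 0.0223 and 0.0303, adjusted p = 0.161 and 0.183). By unadjusted p they ranked 2007 and 2391 among 14472 genes. Atp1b1 passed the edgeR test over the 3 days among control rats (adjusted p = 0.0305), 1 of 8 genes against a background of 2.45% of genes tested. Its mean was 9590.3 ± 1018 CPM at day 1, 7999 ± 2647 CPM at day 2 and 3889 ± 857 CPM at day 4 (SD, n = 3, 4 and 3). In control rats day 4 was 2.47-fold lower than day 1, a log2 difference of -1.30 (SE 0.27, edgeR adjusted p = 0.0175, background 2.40%). In water-loaded rats the means were 8525 ± 1936, 6516 ± 523 and 3839 ± 627 CPM at days 1, 2 and 4 (SD, n = 3, 4 and 3). There the test over days missed the threshold (edgeR adjusted p = 0.124), with 0 of 8 genes called against a background of 0.263%. By unadjusted edgeR p under 0.05 there was 1 of 8, Atp1b1, against 12.1%. DESeq2 called Atp1b1 over the days in water-loaded rats at an adjusted p of 0.0306, where it called 520 genes in all. Day 4 minus day 1 in water-loaded rats was -1.15 on the log2 scale (SE 0.27, adjusted p = 0.0636). Whether the water load altered the course over days was tested directly, and that test gave an edgeR adjusted p of 1.

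Averaged over both treatments, Atp1b1 was 2.34-fold lower at day 4 than at day 1 (log2 difference -1.23, SE 0.19, edgeR adjusted p = 0.000781, 1 of 8 genes against 7.50% of all). This contrast was chosen after the test over days was seen. It stayed below 0.05 in all 31 alternatives, with adjusted p between 8.39e-07 and 0.00801 and log2 differences between -1.33 and -0.91. The call among control rats was less firm: it was lost without the day 1 control 1 library (adjusted p = 0.0797), without day 4 control 1 (0.117), without day 4 control 2 (0.088) and with the level of thick limb and distal tubule markers as a covariate (0.0754), within a range of 0.00334 to 0.117 over 31 alternatives. Depth moved with the days, at 44.5 to 60.7 M reads on genes at day 1 and 33.5 to 48.9 M at day 4, and its part in the result was not tested. Cell type markers moved with the days as well. Among control rats 2 of 10 intercalated cell markers were called over the days, Foxi1 and Slc4a9 (edgeR adjusted p = 0.0237 and 0.0324), along with 6 of 8 smooth muscle, pericyte and fibroblast markers tested (0 of 8 without the day 1 control 1 library) and 0 of 9 principal cell markers. The intercalated cell markers summed to 11064 to 13584 CPM at day 1 and 13688 to 16879 CPM at day 4 in water-loaded rats, and to 9693 to 10695 CPM at day 1 and 13266 to 15398 CPM at day 4 in control rats. The principal cell markers summed to 15986 to 29575 CPM at day 1 and 18804 to 28529 CPM at day 4 in water-loaded rats, and to 28621 to 41897 CPM at day 1 and 35698 to 70954 CPM at day 4 in control rats. The part of these cell types in the Atp1b1 result was not tested.

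**Figure D3:**
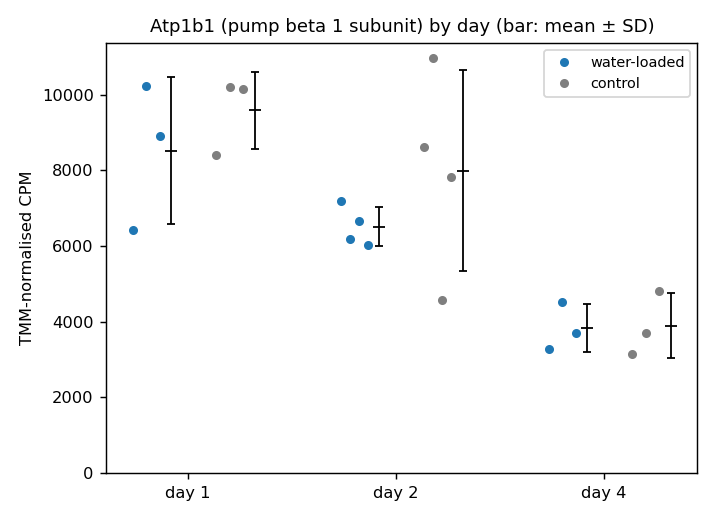
TMM-normalised CPM of Atp1b1 in every library at day 1, day 2 and day 4, water-loaded rats in blue to the left of control rats in grey. Black marks are group means ± SD over 3 or 4 rats. Day 4 values of both treatments lie below every day 1 value in this unit. In FPKM day 1 control 1 (4163) lies below day 4 control 3 (4322) and day 4 water-loaded 2 (4240).

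Fxyd2 (ENSRNOG00000016469) encodes the gamma subunit, a regulator of the pump best known from tubule segments upstream of the collecting duct. At day 1 it stood at 1286, 2484 and 1271 CPM in water-loaded rats, against 2588, 1628 and 1485 CPM in control rats. The highest CPM belonged to the day 1 control 1 library, the library with smooth muscle RNA, and the next to day 1 water-loaded 2, the library with most proximal tubule RNA. Their low TMM factors, 0.645 and 0.686, raise these CPM. In FPKM, without such factors, they stood at 7854 and 8034, and the highest value was 12017 in day 4 water-loaded 1. At day 2 the levels were 1336, 1435, 1341 and 1340.2 CPM in water-loaded rats, against 983, 613, 389.6 and 1546 CPM in control rats. The 4 water-loaded rats lay close together, and the control rats reached both below and above them. Day 4 gave 2098, 1386 and 987 CPM in water-loaded rats, against 1337, 1057 and 976 CPM in control rats. Over the average of days the log2 difference was 0.29 (SE 0.22, interval -0.19 to 0.76, edgeR adjusted p = 0.659), with 7 of 10 water-loaded rats above the control median of their day. Without the day 1 control 1 library it was 0.38, without the day 1 water-loaded 2 library 0.15, and without both 0.25. Over the 32 alternatives it ran from 0.11, with the level of proximal tubule markers as a covariate, to 0.45. The test over days did not call Fxyd2 in control rats (edgeR adjusted p = 0.161) or in water-loaded rats (0.970). In control rats day 2 minus day 1 was -1.11 on the log2 scale (SE 0.37, edgeR unadjusted p = 0.00767, adjusted p = 0.126).

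Fxyd4 (ENSRNOG00000014578) encodes CHIF, the FXYD protein typical of the collecting duct, which raises the pump's affinity for sodium. At day 1 its levels were 291, 443 and 350.4 CPM in water-loaded rats, against 559, 596 and 343 CPM in control rats. At day 2 they were 542, 427, 183 and 139.9 CPM in water-loaded rats, against 708, 793, 372 and 509 CPM in control rats. At day 4 they were 199.8, 405 and 244 CPM in water-loaded rats, against 527, 324 and 364 CPM in control rats. In 9 of 10 water-loaded rats Fxyd4 lay below the control median of the same day, and in 5 of 10 below every control of that day, although the groups overlapped at all 3 days. Water load minus control was -0.62 on the log2 scale over the average of days (SE 0.24, interval -1.14 to -0.10), with an unadjusted edgeR p of 0.0187 and an adjusted p of 0.254. Over the 32 alternatives the adjusted p ranged from 0.105 to 0.724, so Fxyd4 is reported as a difference that did not pass. With the count of genes detected entered as a covariate the difference was -0.30. Beside it, all 9 principal cell markers had log2 differences below 0 over the average of days, and 2 of 9 were called lower, Aqp2 and Aqp3, water channels under the control of vasopressin (log2 differences -1.07 and -1.59, edgeR adjusted p = 0.0262 and 0.00229). Their part in the Fxyd4 difference was not tested.

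At day 2 the libraries numbered 3 and 4 differed from those numbered 1 and 2 in both treatments. Fxyd4 was lower in water-loaded rats within each pair of numbers, by a mean log2 difference of -0.64 in numbers 1 and 2 and -1.44 in numbers 3 and 4. Kcnk1 gave -1.10 and -0.67 for the same pairs. Fxyd2 gave 0.83 and 0.79, higher in both. Kcnj16 (0.80 and 0.54) and Kcnma1 (3.20 and 0.54) were also higher in both. The other genes differed in sign between the pairs: Atp1b1 gave -0.54 and 0.083, Kcnj1 gave 0.067 and -0.38, and Kcnj10 gave -0.27 and 0.49.

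The balance of the 2 FXYD genes was set out as a ratio, whose mean was lower in water-loaded rats than in control rats at each day. The ratio of Fxyd4 to Fxyd2 CPM was 0.227 ± 0.0487 in water-loaded rats and 0.271 ± 0.0825 in the controls at day 1 (SD, n = 3 each). At day 2 it was 0.236 ± 0.141 in water-loaded rats and 0.824 ± 0.405 in the controls (SD, n = 4 each). At day 4 it was 0.212 ± 0.103 in water-loaded rats and 0.358 ± 0.0454 in the controls (SD, n = 3 each). At day 4 the ranges did not meet, 0.0952 to 0.292 in water-loaded rats against 0.307 to 0.394 in controls, whereas at days 1 and 2 they overlapped. Among all single genes tested, 14.7% likewise had no overlap of the treatments at day 4. The ratio was chosen after the single genes were seen and was not tested.

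The other pump and FXYD genes were mostly faint. Of 12 listed, 7 passed the filter, and over the average of days 2 were higher, 5 lower and 0 called, with a median log2 difference of -0.53. Atp1b3, the beta 3 subunit, averaged 386 ± 167 CPM in water-loaded rats and 519 ± 315 CPM in controls (SD, n = 10 each). Atp1b2, the beta 2 subunit, had the smallest p of the list, with a log2 difference of -3.20 (SE 1.54, edgeR adjusted p = 0.382) from 213 counts over all libraries. Atp1a4 and Fxyd3 had 0 counts in the 20 libraries, and Fxyd7 had 32. Fxyd1, phospholemman of muscle, was called over days among control rats (edgeR adjusted p = 0.0316) together with 6 of 8 smooth muscle, pericyte and fibroblast markers tested. The day 1 control 1 library held 7596 of the 7684 counts of Fxyd1. Without that library, an alternative added after its counts were seen, Fxyd1 was not called (edgeR adjusted p = 0.5) and 0 of the 8 markers were.

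**Figure D4:**
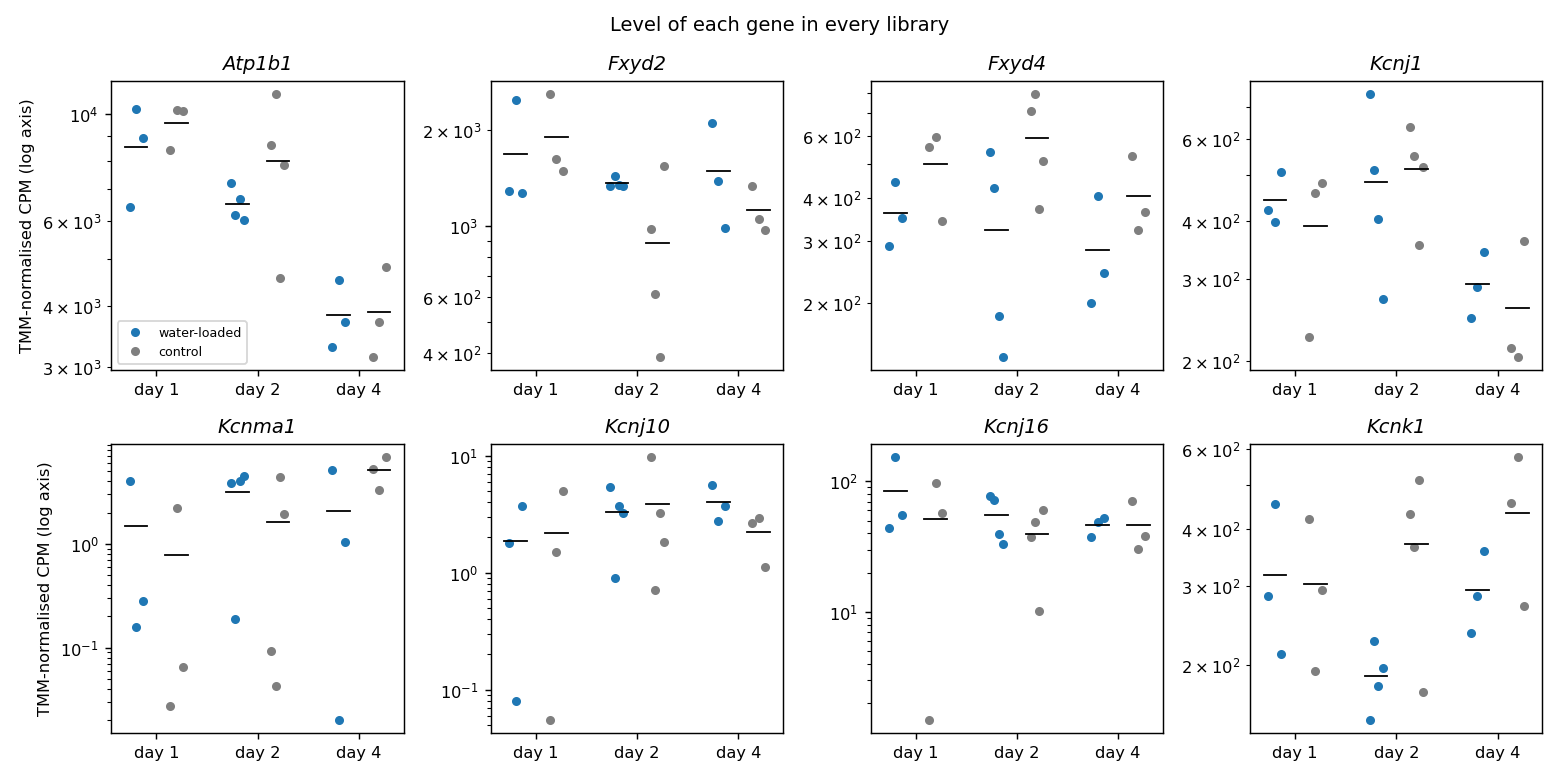
TMM-normalised CPM (log axis, different range in each panel) of the 8 genes in every library by day, water-loaded rats in blue to the left of control rats in grey, with a line at the group mean. The treatments overlap in every panel at every day, and the highest over the lowest level was 342-fold for Kcnma1, 176-fold for Kcnj10 and 103-fold for Kcnj16.

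Kcnj1 (ENSRNOG00000059005) encodes ROMK, the luminal channel that carries the constant secretion of potassium by principal cells. At day 1 it had 422, 397 and 509 CPM in water-loaded rats, against 225, 458 and 483 CPM in control rats. Day 2 gave 747, 514, 403 and 272 CPM in water-loaded rats, against 635, 551, 354 and 521 CPM in control rats. Day 4 gave 247, 288 and 343 CPM in water-loaded rats, against 213, 204 and 362 CPM in control rats. Water-loaded and control rats were interleaved at each day, and the highest value belonged to a water-loaded rat at day 2. Over the average of days the log2 difference was 0.090 (SE 0.20, interval -0.33 to 0.51, edgeR adjusted p = 0.951). Day 4 levels were low in both treatments, at 293 ± 48.0 CPM in water-loaded rats and 259.6 ± 89.0 CPM in the controls (SD, n = 3 each). The test over days did not pass in control rats (edgeR adjusted p = 0.183) or in water-loaded rats (0.524). Averaged over both treatments, day 4 minus day 1 was -0.59 on the log2 scale (SE 0.25, edgeR unadjusted p = 0.0306, adjusted p = 0.155).

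Kcnma1 (ENSRNOG00000005985) encodes the pore of the BK channel, which opens with calcium and voltage and secretes potassium when tubular flow is high. It was the faintest of the 8, with 1 to 374 counts per library and 6 or fewer counts in 6 libraries. At day 1 it stood at 4.03, 0.159 and 0.283 CPM in water-loaded rats, against 0.0276, 2.24 and 0.0657 CPM in control rats. At day 2 the levels were 3.88, 0.191, 4.02 and 4.53 CPM in water-loaded rats, against 0.0935, 0.0427, 4.39 and 1.95 CPM in control rats, and at day 4 5.18, 0.0202 and 1.05 CPM in water-loaded rats, against 5.22, 3.27 and 6.90 CPM in control rats. Both treatments held libraries near 0 and libraries of several CPM at days 1 and 2, and the groups overlapped widely. In the day 4 water-loaded 2 library 1 count was found, with an exact Poisson interval of 0.000511 to 0.112 CPM that covers counting error only. The log2 difference over the average of days was 0.20 with an interval of -2.05 to 2.45 (edgeR adjusted p = 1). Of the accessory subunits of the BK channel, Kcnmb1 had 2 counts over all 20 libraries and Kcnmb2, Kcnmb3, Kcnmb4 and Lrrc26 had 0, where a count of 0 allows up to 3 counts among 1056 M reads on genes.

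Kcnj10 (ENSRNOG00000007705) and Kcnj16 (ENSRNOG00000004713) encode subunits that join in a basolateral inward rectifier channel, which returns potassium to the blood and sets the membrane voltage. Kcnj10 was sparse, with 2 to 626 counts per library. Its day 1 levels were 1.80, 0.0794 and 3.73 CPM in water-loaded rats, against 0.0553, 1.50 and 5.03 CPM in control rats. At day 2 it had 5.37, 0.902, 3.69 and 3.22 CPM in water-loaded rats, against 9.75, 0.712, 3.26 and 1.82 CPM in control rats. At day 4 it had 5.58, 2.76 and 3.73 CPM in water-loaded rats, against 2.67, 2.90 and 1.12 CPM in control rats. Its lowest values were in the day 1 control 1 and day 1 water-loaded 2 libraries, the 2 libraries that stood apart in markers of other cell types, at 2 and 3 counts. The log2 difference over the average of days was 0.13 (interval -1.55 to 1.80, edgeR adjusted p = 1), and with both libraries set aside it was 0.12.

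For Kcnj16 the day 1 levels were 43.7, 154 and 55.1 CPM in water-loaded rats, against 1.49, 97.6 and 56.9 CPM in control rats. Day 2 gave 77.4, 72.1, 39.2 and 33.2 CPM in water-loaded rats, against 37.4, 48.9, 10.1 and 60.8 CPM in control rats. Day 4 gave 37.4, 48.8 and 52.1 CPM in water-loaded rats, against 70.4, 30.3 and 37.9 CPM in control rats. The extremes were both at day 1: the lowest value in the day 1 control 1 library, from 54 counts, and the highest in the day 1 water-loaded 2 library. Water load minus control over the average of days was 0.40 on the log2 scale (SE 0.48, edgeR adjusted p = 0.834), and with these 2 libraries set aside it was -0.046. At day 1 alone the difference of 0.70 turned to -0.65 without them. Kcnj16 exceeded Kcnj10 in every library. The median FPKM ratio was 11.7 in water-loaded rats (range 5.37 to 1556) and 21.3 in control rats (range 2.48 to 55.1). These ranges overlapped, and the ratio was not tested.

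Kcnk1 (ENSRNOG00000019937) encodes TWIK-1, a weak inward rectifier of the tandem pore family. At day 1 it had 284, 454 and 212 CPM in water-loaded rats, against 421, 195 and 293 CPM in control rats. The day 2 levels were 152, 227, 180.3 and 197 CPM in water-loaded rats, against 431, 365, 513 and 174 CPM in control rats. At day 4 it stood at 235, 285 and 358 CPM in water-loaded rats, against 457, 577 and 270.2 CPM in control rats. At day 2 all 4 water-loaded rats lay below 3 of the control rats, while the other control, at 174 CPM, lay among them. The day 2 log2 difference was -0.97 (SE 0.34, interval -1.70 to -0.24), with an unadjusted edgeR p of 0.00983 and an adjusted p of 0.857. Over the average of days it was -0.49 (SE 0.22, unadjusted p = 0.0337, adjusted p = 0.32), with 9 of 10 water-loaded rats below the control median of their day. With the count of genes detected entered as a covariate it was -0.18, and with limma on log2(FPKM + 1) it was -0.31. A difference of the effect between days was not detected (edgeR adjusted p = 0.757).

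Of 40 other potassium channel genes and subunits listed, 39 were found and 17 passed the filter; 9 were higher and 8 lower over the average of days, 0 were called, and 4 of 17 had an unadjusted edgeR p under 0.05, against 13.5% of all genes. Kcnq1, a voltage-gated channel, had the smallest p of the list. It averaged 309.6 ± 51.2 CPM in water-loaded rats and 522 ± 160.1 CPM in controls (SD over days, n = 10 each). Its log2 difference of -0.74 (SE 0.15) missed the threshold at an edgeR adjusted p of 0.0535. Its accessory subunit Kcne1 averaged 394 ± 116 CPM in water-loaded rats and 351 ± 139 CPM in controls (SD, n = 10 each). Another 10 genes of the list had 0 counts in all libraries.

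Among 19 listed regulators of the pump and of the channels, 17 passed the filter, 7 were higher and 10 lower over the average of days, and 0 were called. An unadjusted edgeR p under 0.05 was found for 2 of 17, against 13.5% of all genes: Ptpn2, a tyrosine phosphatase, and Wnk1, a kinase that controls ROMK at the membrane. Ptpn2 averaged 57.4 ± 19.4 CPM in water-loaded rats and 88.7 ± 32.1 CPM in control rats (adjusted p = 0.314). Wnk1 averaged 173 ± 89.0 CPM in water-loaded rats and 104 ± 50.3 CPM in control rats (adjusted p = 0.33; SD, n = 10 each). Sgk1, the aldosterone-induced kinase that raises pump and channel activity, averaged 472 ± 107 CPM in water-loaded rats and 650.0 ± 309.8 CPM in control rats, with an adjusted p of 0.388.

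Across the 20 libraries the Pearson r of log2 CPM between pairs of the 8 genes ran from -0.53, for Atp1b1 and Kcnma1, upward. The closest pair was Atp1b1 and Kcnj1, with a Pearson r of log2 CPM of 0.67 and a Spearman rho of 0.68, a description over libraries that share days and treatments. For each gene the most similar of 7385 or 7386 other genes with a mean of at least 10 CPM was taken by Pearson r over 20 libraries. Atp1b1 came closest to Ctsh, Pon2 and Pdcd10 (r = 0.92, 0.91 and 0.90) and Fxyd4 to Pde3b, Them6 and Mt-atp6 (r = 0.75, 0.70 and 0.69). Rps15 and Rps15a were among the 3 closest to Fxyd2 (r = 0.84 and 0.83). Kcnj1 came closest to Esd, Bcap31 and Arl6ip1 (r = 0.82, 0.82 and 0.82) and Kcnk1 to Fgfr1op2, Tmem132a and Gng10 (r = 0.87, 0.84 and 0.82). Kcnj10 came closest to Uspl1, Tbc1d5 and Ttc27 (r = 0.91, 0.91 and 0.88), Kcnj16 to Zfp276, Rapgef5 and Dnajc12 (r = 0.90, 0.90 and 0.89) and Kcnma1 to Maea, Lrwd1 and Cln3 (r = 0.73, 0.72 and 0.71). For Kcnj16 and Kcnj10 these values rest on the 2 day 1 libraries that stood apart: without them Kcnj16 had r = 0.51, 0.48 and 0.58 and Kcnj10 had r = 0.66, 0.65 and 0.65 with the same genes over 18 libraries, and over all 20 libraries the Spearman rho was 0.58, 0.66 and 0.42 for Kcnj16 and 0.77, 0.68 and 0.73 for Kcnj10.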

How the data were processed

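Microdissected rat cortical collecting ducts were sequenced, 1 library per rat. Reverse transcription ran in the tubule lysate with a single-cell protocol, per the labels. The submitters' processing notes name Trimmomatic 0.32, STAR 2.4.0.1, SAMtools, HTSeq and rn6. Annotation and strand use were not given in the sources used here. Whole-number counts per gene and FPKM values were deposited by the authors. The FPKM values rescale the same counts: in 13538 genes the implied length varied between libraries by more than 0.1% in 0. Lines that name no gene, 31.5% to 35.6% of a library, were left out.

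The main test was edgeR 4.0.16 under R 4.3.3 (filterByExpr on group, TMM factors, robust quasi-likelihood fit of 6 group means to all 20 libraries). SE is the log2 difference over the root of F, and approximate 95% intervals use 14 residual degrees of freedom. Adjusted p is Benjamini-Hochberg over 14472 genes. DESeq2 1.42.0, limma 3.58.1 and other settings were alternatives, and the scripts were tested on simulated data. The simulated spread between libraries was set below that of these data, so that check does not show how often changes are found at the real spread. The genes, the lists and the rule for named genes (the 8, the called genes of a list or else its smallest p, and the 3 most similar genes) were chosen with earlier results of these data known; Sgk1, Atp1b3 and Kcne1 and the genes at 0 or few counts were named after their values were seen. Intervals from counts cover counting error only, since PCR copies carry no molecular identifier. Same-numbered libraries of the 2 treatments correlated in their deviations at 0.148, 0.147, 0.154 and 0.236 at day 2, all over 0.1, the limit used for treating numbers as pairs. Unlike numbers within 1 and 2 or within 3 and 4 correlated at 0.110 to 0.204 as well, so the values separate numbers 1 and 2 from 3 and 4 and do not show pairing number by number; at days 1 and 4 the values lay between -0.0907 and 0.0595. With that block 5 genes in place of 23 were called over the average of days, and 0 of the 8. Some listed or similar genes are not reported here.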

Additional observations from a re-analysis of the deposited data

Results flagged for a closer look

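The 8 genes were screened for single libraries far from the rest in the 16 groups of 4 libraries at day 2, where chance marks about 1 group in 20. Fxyd2 in the day 2 water-loaded 2 library stood apart at 1435 CPM, with the other 3 libraries of its group between 1336 and 1341 CPM, so that the gap was 0.954 of the group's range. Kcnma1 in the same library stood apart at 0.191 CPM, with the other 3 libraries between 3.88 and 4.53 CPM and a gap of 0.849 of the range.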

How the results depend on the processing

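Each gene and comparison was recomputed under 32 alternatives, 20 of which left out 1 library. Of 1838 values over 58 pairs of gene and comparison, 1766 kept their side of the threshold and, where they had one, their direction. Another 64 changed sign without being called, 7 lost a call and 1 gained one. The tests over the 3 days and of an effect that differed between days have no direction, so their values could not change sign. The water load called 0 of the 8 genes under every one of these alternatives. All lost and gained calls were of Atp1b1 over the days: the call over days among control rats was lost with the thick limb and distal tubule marker level as a covariate, leaving 0 of 8, and on leaving out 1 library the number called was 0 to 1. Among water-loaded rats DESeq2 called 1, with 520 genes called in all. Day 4 minus day 1 in control rats lost its call without day 1 control 1 (edgeR adjusted p = 0.0524), day 4 control 1 (0.0934) and day 4 control 2 (0.0621), within 0.000559 to 0.0934 over 31 alternatives. The causes were not tested.

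None of the log2 differences that changed sign was called before or after. With limma on log2(FPKM + 1) the sign turned for Kcnma1 at -0.016 (average), Kcnj10 at 0.018 (day 2), Atp1b1 at 0.26 (day 4) and Kcnj16 at 0.33 (day 4). With a covariate for genes detected the sign turned for Kcnma1 at -1.44 (average), Kcnj10 at -0.22 (average), Atp1b1 at 0.092 (day 4), Fxyd4 at 0.13 (day 4) and Kcnj16 at 0.25 (day 4). With both outlying day 1 libraries removed the sign turned for Kcnj16 at -0.046 (average), Kcnj1 at -0.020 (day 1), Kcnj16 at -0.65 (day 1) and Kcnj16 at 0.0065 (day 4). With the thick limb and distal tubule marker level as a covariate the sign turned for Atp1b1 at 0.062 (day 1), Fxyd2 at 0.024 (day 1), Kcnma1 at -0.49 (day 1), Kcnk1 at -0.076 (day 1), Kcnj10 at 0.20 (day 2) and Atp1b1 at 0.029 (day 4). With limma-voom the sign turned for Kcnj10 at 0.025 (day 1), Kcnj10 at 0.15 (day 2) and Kcnj16 at 0.055 (day 4). With limma on log2(FPKM + 0.1) the sign turned for Kcnj10 at 0.066 (day 1), Kcnj10 at 0.11 (day 2), Atp1b1 at 0.26 (day 4) and Kcnj16 at 0.35 (day 4). With the proximal tubule marker level as a covariate the sign turned for Kcnk1 at -0.26 (day 1) and Kcnma1 at 0.30 (day 4). With the replicate block the sign turned for Kcnj10 at 0.13 (day 2) and Kcnj16 at 0.087 (day 4). With DESeq2 size factors the sign turned for Kcnj16 at 0.013 (day 4). With no filter on low counts the sign turned for Kcnj16 at 0.010 (day 4). With DESeq2 the sign turned for Kcnj16 at 0.013 (day 4). Leaving out 1 library gave Kcnj1 from -0.0019 to 0.20 (average), Kcnma1 from -0.72 to 1.52 (average), Kcnj10 from -0.19 to 0.62 (average), Fxyd2 from -0.57 to 0.11 (day 1), Kcnj1 from -0.087 to 0.37 (day 1), Kcnma1 from -1.82 to 4.90 (day 1), Kcnj10 from -1.20 to 1.26 (day 1), Kcnj16 from -0.073 to 1.53 (day 1), Kcnk1 from -0.28 to 0.38 (day 1), Kcnj1 from -0.38 to 0.14 (day 2), Kcnj10 from -0.59 to 0.78 (day 2), Atp1b1 from -0.15 to 0.18 (day 4) and Kcnj16 from -0.23 to 0.44 (day 4). The replicate block, whose numbers may only separate day 2 libraries 1 and 2 from 3 and 4, changed no call of the 8. Over all 32 alternatives the average of days ran from -0.24 to -0.0098 for Atp1b1, -0.74 to -0.30 for Fxyd4, -0.046 to 0.97 for Kcnj16 and -0.61 to -0.18 for Kcnk1.

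Counts of all genes called moved more. For the average of days, the count of 23 became 708 with DESeq2, 63 with limma-voom, 13 with limma on log2(FPKM + 0.1), 5 with the replicate block, 4 with a covariate for genes detected, 8 with the thick limb and distal tubule marker level as a covariate, 10 with the proximal tubule marker level as a covariate, and 6 to 37 when leaving out 1 library. At day 1, the count of 0 became 1126 with DESeq2, 2 with limma-voom, 2 with limma on log2(FPKM + 1), 1 with limma on log2(FPKM + 0.1), and 0 to 9 when leaving out 1 library. At day 2, the count of 0 became 77 with DESeq2, 20 with limma-voom, 2 with limma on log2(FPKM + 0.1), and 0 to 0 when leaving out 1 library. At day 4, the count of 0 became 319 with DESeq2, 2 with limma on log2(FPKM + 1), 3 with limma on log2(FPKM + 0.1), and 0 to 0 when leaving out 1 library. For the difference of the effect between days, the count of 0 became 193 with DESeq2, 1 with limma-voom, 1 with limma on log2(FPKM + 0.1), and 0 to 3 when leaving out 1 library. For the days among control rats, the count of 355 became 1590 with DESeq2, 23 with the thick limb and distal tubule marker level as a covariate, 570 with the proximal tubule marker level as a covariate, 604 with a day 2 term for numbers 3 and 4, 185 with both outlying day 1 libraries removed, and 43 to 563 when leaving out 1 library. For the days among water-loaded rats, the count of 38 became 520 with DESeq2, 101 with limma-voom, 124 with limma on log2(FPKM + 1), 127 with limma on log2(FPKM + 0.1), 0 with a covariate for genes detected, 12 with the thick limb and distal tubule marker level as a covariate, 14 with the proximal tubule marker level as a covariate, 169 with a day 2 term for numbers 3 and 4, 11 with both outlying day 1 libraries removed, and 5 to 79 when leaving out 1 library. With limma-voom, limma on log2(FPKM + 0.1) and the replicate block the median log2 difference over all genes lay at 0.17, 0.22 and 0.16, in place of 0.01, so differences in those fits stand against that shift. Counting error is largest for Kcnma1 and Kcnj10, which had 6 or fewer counts in 6 and 2 libraries. Low counts were not confined to shallow libraries: Kcnma1 had 3 in the deepest one.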
